A study of Homo sapiens with 4 samples.

Results

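Cells high in RNA of S phase, the phase in which DNA is copied, were examined in 4 single-cell RNA sequencing (scRNA-seq) libraries. The libraries came from prostate cancer cells, 1 each of LNCaP, LNCaP-ENZ48 and the enzalutamide-resistant RES-A and RES-B lines. The cells were chosen by a score, the summed UMIs (unique molecular identifiers, which count captured RNA molecules) of 12 replication genes per 10000 UMIs of the cell. The 12 genes were PCNA, MCM3, MCM4, MCM5, MCM6, MCM7, TYMS, RRM2, HELLS, GINS2, CLSPN and FAM111B. The 10% of cells with the highest score over the pooled libraries were called S phase cells, which gave 1546 of 15452 kept cells. LNCaP held 136 of 2019, LNCaP-ENZ48 205 of 4565, RES-A 800 of 4629 and RES-B 405 of 4239. The score is continuous, so these cells are a range of a score and not a separate cell type. The label rests on RNA, and DNA synthesis was not measured in these cells. The 5 cells just inside the cut scored 8.70, 8.71, 8.72, 8.72 and 8.73 and the 5 just outside 8.70, 8.70, 8.70, 8.69 and 8.69. Within 10% of the cut lay 16 S phase cells and 28 other cells of LNCaP, 20 and 27 of LNCaP-ENZ48, 67 and 69 of RES-A, and 25 and 41 of RES-B. Sets of 4 values keep this order of libraries throughout.

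LNCaP is an androgen-sensitive line that was derived from a metastasis. Parental LNCaP cells were given the solvent DMSO (0.1%) for 48 h, and LNCaP-ENZ48 cells received 10 µM enzalutamide (ENZ), an androgen receptor antagonist used against prostate cancer, for 48 h. RES-A had been derived from LNCaP by passaging in rising ENZ concentrations and RES-B by continuous exposure to RD-162, another antiandrogen, and both resistant lines were kept in 10 µM ENZ. Each group was 1 library of sorted living cells and each resistant line 1 derivation without a drug-free library, so no difference between groups has a replicate check, and the line and its drug exposure cannot be told apart. No test was run, and the 95% intervals in parentheses cover counting error only.

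During S phase a cell copies its genome from origins that were licensed in G1, when ORC, CDC6 and CDT1 load the MCM helicase onto DNA. CDC45 and the GINS complex then activate the helicase, DNA polymerases copy the strands with the clamp PCNA, and new DNA is packed with freshly made histones. E2F transcription factors, held back by proteins of the retinoblastoma family until the G1 to S transition, switch on many of these genes, whereas the genes of mitosis come up later, in G2 and M. In prostate luminal cells the androgen receptor drives secretory genes such as KLK3, which encodes prostate-specific antigen, and it also supports the growth of LNCaP cells.

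S phase cells made up 6.74% (5.68 to 7.92%), 4.49% (3.91 to 5.13%), 17.3% (16.2 to 18.4%) and 9.55% (8.69 to 10.5%) of the kept cells. RES-A had the highest share and LNCaP-ENZ48 the lowest, and none of the 4 counting intervals overlapped another. Relative to LNCaP the share of S phase cells was 0.667 (0.540 to 0.823) times as high in LNCaP-ENZ48, 2.57 (2.16 to 3.05) times in RES-A and 1.42 (1.18 to 1.71) times in RES-B, and RES-B had 0.553 (0.494 to 0.618) times the share of RES-A. The score chose the cells, so the shares describe where high scores were found. Parental LNCaP cells had more UMIs per cell, and with every cell thinned to 5000 UMIs the share of S phase cells was 7.13, 4.53, 17.1 and 9.58%. The ratio for the resistant lines depended on where the score was cut. RES-A had 3.78 times and RES-B 2.20 times the LNCaP share among the top 5% of cells, but 1.81 and 1.14 times among the top 20%. The median score was 13.7, 14.7, 15.9 and 16.6 in S phase cells and 1.22, 0.906, 1.70 and 1.38 in the other cells.

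**Figure D1:**
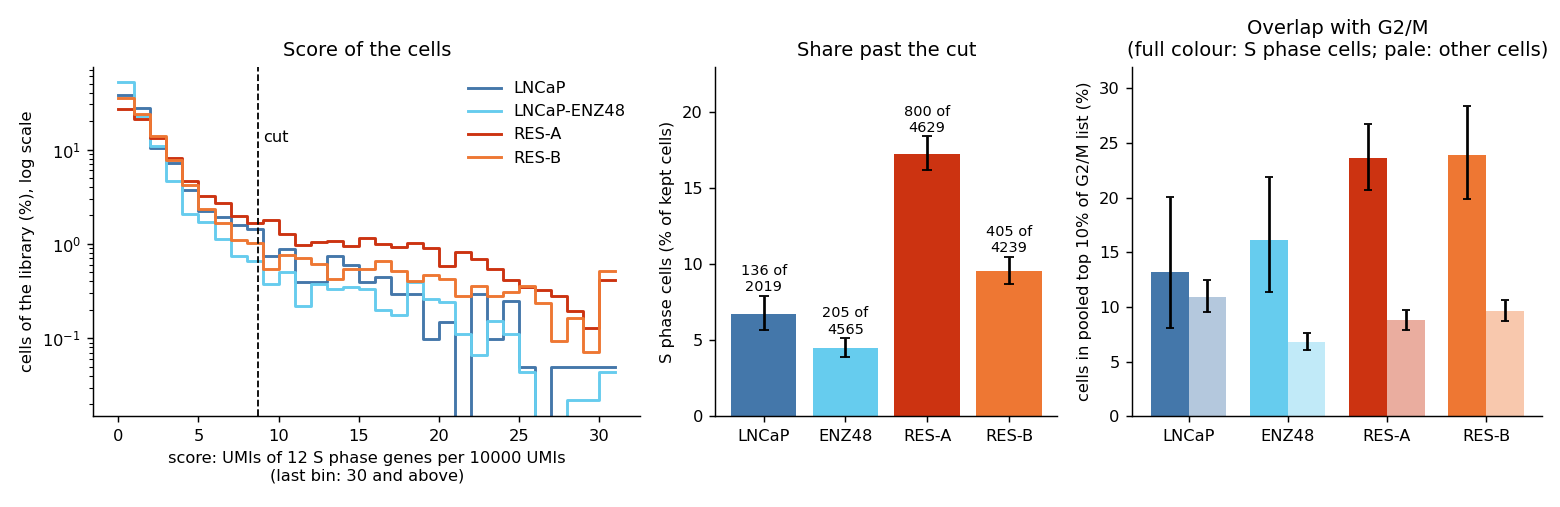
Left, percent of the cells of each library (log scale) against the score, the UMIs of 12 genes per 10000 UMIs, with the cut as a dashed line; middle and right, the share of S phase cells among kept cells (%) and the share of S phase cells (full colour) and other cells (pale) in the pooled top 10% of the G2/M list (%), with exact 95% binomial intervals. RES-A has the largest share past the cut, 17.3%, and in LNCaP-ENZ48, RES-A and RES-B the S phase cells lie above the other cells in the share high in G2/M genes.

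The chosen cells were compared with the other cells in total UMIs, the denominator of the score, and in measures outside it. S phase cells held a median of 32678.5, 17388, 14237 and 16181 UMIs, against 26020, 13799.5, 11780 and 12173.5 in the other cells of the same library, a ratio of 1.26, 1.26, 1.21 and 1.33. At an equal depth of 5000 UMIs per cell they also showed more genes, with medians of 1816, 1781, 1852.5 and 1913 against 1739, 1689, 1778 and 1841. Their median share of mitochondrial UMIs was 9.30, 9.02, 9.64 and 11.4%, against 9.76, 9.40, 10.6 and 12.3% in the other cells. S phase cells therefore held more UMIs and a slightly smaller mitochondrial share in all 4 libraries, and the part of cell size in the values below was not tested. The UMIs behind the S phase cells summed to 4469940, 3676073, 11602605 and 6773803, and those behind the other cells to 51226258, 64482298, 47054922 and 50935427. Of 14 defining markers of immune, endothelial, stromal, neuroendocrine, basal and red blood cells, 8 to 11 were at 0 in S phase cells, and all 14 together summed to 11.9, 8.16, 9.05 and 8.56 CPM (counts per 1000000 UMIs) in S phase cells and 12.03, 9.54, 9.61 and 7.44 CPM in the other cells. Among the 17233 barcodes of the 4 libraries 35 barcode sequences occurred in more than 1 library, and none of these was an S phase cell in more than 1.

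The 12 score genes were also read in cells that their own UMIs had not chosen, by repeating the choice with the other 11 genes. This returned sets of which 86.5% to 98.8% were S phase cells. Levels were compared as the log2 ratio of CPM between S phase cells and the other cells of the same library, on UMIs summed over cells. FAM111B, a protease, had log2 ratios of 4.49, 5.64, 3.38 and 3.56. CLSPN, the checkpoint mediator claspin, had 4.41, 5.15, 4.32 and 4.82. Both genes had their largest log2 ratio in LNCaP-ENZ48 and their smallest in RES-A. GINS2, of the helicase complex, had 3.29, 3.97, 3.13 and 3.40, and RRM2, the small subunit of ribonucleotide reductase, 3.35, 3.94, 2.97 and 3.74. TYMS, which makes thymidylate, had 2.50, 3.02, 2.27 and 2.91 and the clamp PCNA 2.24, 2.48, 2.32 and 2.51. The helicase subunits MCM3, MCM4, MCM5, MCM6 and MCM7 ranged from 2.15 for MCM6 in RES-A to 3.89 for MCM4 in LNCaP-ENZ48, and the chromatin remodeler HELLS had 2.96, 3.36, 2.74 and 3.17. Every score gene was thus higher in cells chosen without it, by at least 2.15 on the log2 scale in all 4 libraries.

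Over the transcriptome outside the 12 score genes, 194 genes were at least 2-fold higher in S phase cells of each of the 4 libraries. In the other direction, 1 gene was at least 2-fold lower in each. These are 4.18% and 0.0216% of 4639 genes with at least 20 CPM in S phase cells or other cells of every library. The 4639 genes leave out the score genes too. Single libraries had 5.11%, 6.57%, 4.9% and 5.25% of their genes at least 2-fold higher and 0.486%, 0.505%, 0.112% and 0.3% lower. The median log2 ratio over all genes was 0.00, 0.02, 0.00 and -0.01, so a small set of genes lay far above the rest and hardly any lay far below. The contrast is the one that chose the cells, so these counts are a description. A gene could reach the minimum through the S phase cells alone, and 50 of the 194 genes also had 20 CPM in the other cells of every library. The count was 95 with a minimum of 50 CPM, 64 with 20 CPM over all cells of each library, a setting chosen after seeing the data, and 590 with no minimum.

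The 15 genes with the highest values in every library, outside the score, had log2 ratios from 2.96 to 4.95. MCM10 (chr10:13161558-13211110, GRCh38), which helps to activate the helicase, was at 76.3, 75.1, 58.1 and 52.0 CPM in S phase cells and at 3.26, 2.50, 3.42 and 2.41 CPM in the other cells, a log2 ratio of 4.55 (4.28 to 4.82), 4.91 (4.62 to 5.1998), 4.09 (3.84 to 4.34) and 4.43 (4.13 to 4.74). DTL (chr1:212035553-212107400), which directs the ubiquitin ligase that destroys CDT1 at the clamp, was at 50.8, 40.3, 49.4 and 77.2 CPM in S phase cells against 2.09, 1.30, 2.95 and 3.18 CPM, a log2 ratio of 4.60 (4.27 to 4.95), 4.95 (4.55 to 5.35), 4.06 (3.79 to 4.34) and 4.60 (4.34 to 4.86). Both had log2 ratios of at least 4.06 in each library, and no value in S phase cells overlapped a value in other cells. BRCA1, a tumor suppressor of homologous recombination, was at 165, 150.2, 124 and 149 CPM against 14.1, 7.20, 11.1 and 10.2 CPM. RAD54L, of the same pathway, had log2 ratios of 4.03, 4.51, 3.66 and 4.10, and PSMC3IP 3.11, 3.58, 2.96 and 3.42. These recombination genes had log2 ratios of at least 2.96 in every library. ESCO2, which acetylates cohesin during replication, was at 130.4, 147, 79.8 and 64.7 CPM against 12.4, 7.13, 5.44 and 5.99 CPM. PKMYT1, a kinase that holds back CDK1, was at 51.0, 47.1, 35.6 and 36.8 CPM against 5.10, 3.19, 3.25 and 3.46 CPM. ATAD2, a bromodomain protein of replicating chromatin, was at 346, 291, 168 and 231 CPM against 40.3, 21.6, 18.4 and 22.7 CPM. In each of these genes the lowest S phase value lay above the highest value of the other cells. TCF19 had log2 ratios of 3.28, 3.995, 3.08 and 3.31. The other 6 of the 15, CDC6, CDC45, ASF1B, FEN1, E2F1 and HIST1H1B, are described with their groups.

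**Figure D2:**
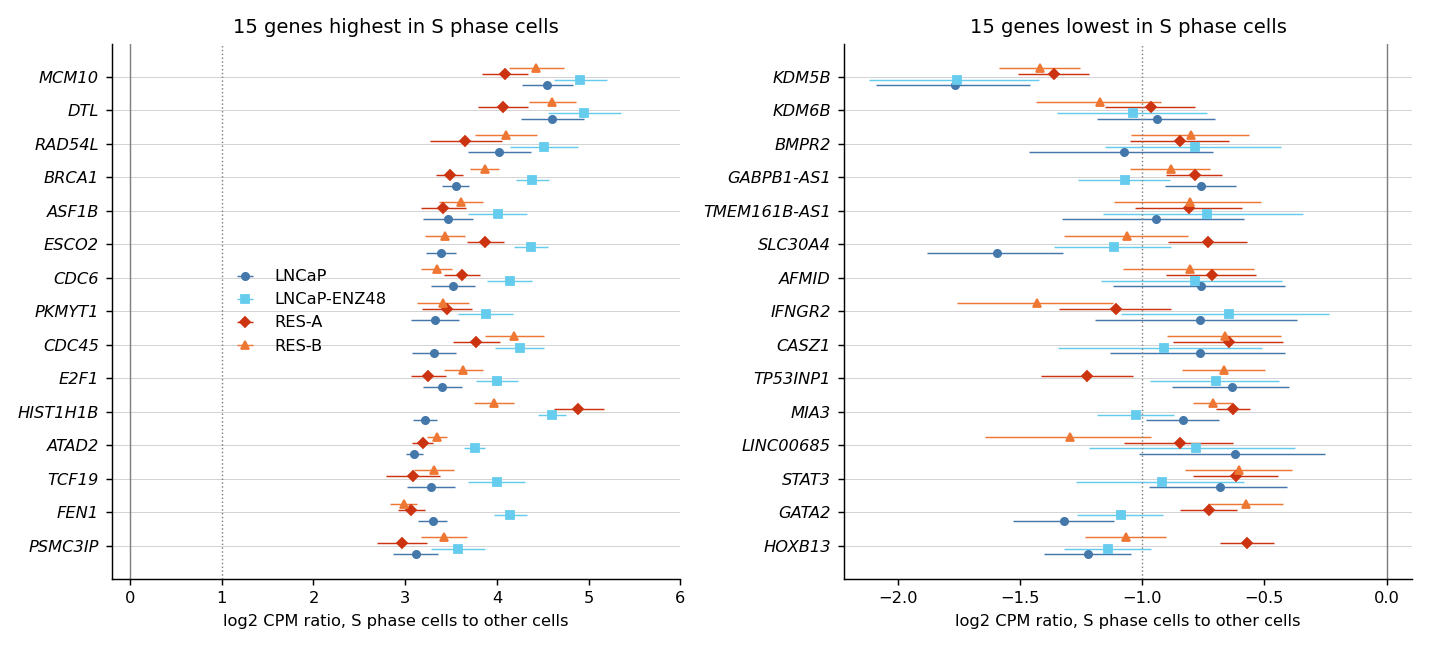
Log2 ratio of CPM in S phase cells to other cells of the same library for the 15 genes highest and the 15 lowest in all 4 libraries, with exact conditional binomial 95% intervals, 1 symbol per library and dotted lines at a 2-fold difference. The 15 highest lie between 2.96 and 4.95, whereas of the 15 lowest KDM5B alone lies past the 2-fold line in every library.

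Genes that license and fire origins were higher as a group. Of 14 genes listed, 10 reached the minimum in every library and 9 of these were at least 2-fold higher in all 4, with list medians of 2.70, 3.26, 2.51 and 3.19. CDC6, CDC45 and MCM10 were among those that reached the minimum in S phase cells and not in other cells, and with 20 CPM required over all cells of a library, the medians were 2.26, 2.24, 2.39 and 2.44. CDC6, which loads the helicase, was at 63.5, 73.4, 73.0 and 97.7 CPM in S phase cells and 5.54, 4.17, 5.95 and 9.64 CPM in the other cells. CDT1, its partner in loading, was at 152, 138, 119.6 and 117 CPM against 23.4, 13.7, 17.3 and 10.96 CPM. GMNN, the inhibitor of CDT1, was at 91.9, 87.3, 77.7 and 167 CPM against 26.0, 18.5, 19.6 and 51.6 CPM. The loader and its inhibitor were therefore both higher in S phase cells of all 4 libraries. CDC45, which activates the helicase, was at 60.0, 68.6, 49.4 and 42.2 CPM against 6.03, 3.61, 3.61 and 2.32 CPM. MCM2, the helicase subunit that was not in the score, had log2 ratios of 2.82, 3.07, 2.36 and 2.86, and ORC6, of the origin recognition complex, 2.79, 3.47, 3.05 and 3.19. MCM8 had 2.36, 3.15, 2.03 and 2.27 and GINS1 2.21, 3.26, 2.35 and 2.81. The exception was DBF4, the activating subunit of the CDC7 kinase, whose log2 ratios of 0.67, 1.55, 1.52 and 1.19 passed 2-fold in 3 of the 4 libraries.

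Promoter sequences are shown because E2F factors are known to act on S phase genes through short motifs near the start. The RefSeq windows on GRCh38.p14 printed here hold the 160 bases before the annotated start of 2 score genes (MCM3 and MCM6), of CDC6, of E2F1 and of the 2 genes with the highest values (DTL and MCM10), 5′ to 3′ on the strand of the gene, with E2F motif matches in capitals. The windows are MCM3 chr6:52284743-52284902 (minus strand), MCM6 chr2:135876444-135876603 (minus strand), CDC6 chr17:40287719-40287878 (plus strand), E2F1 chr20:33686386-33686545 (minus strand), DTL chr1:212035588-212035747 (plus strand) and MCM10 chr10:13161398-13161557 (plus strand).
MCM3: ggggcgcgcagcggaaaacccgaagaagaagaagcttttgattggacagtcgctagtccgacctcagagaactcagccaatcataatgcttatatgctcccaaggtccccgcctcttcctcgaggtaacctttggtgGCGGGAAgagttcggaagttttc
MCM6: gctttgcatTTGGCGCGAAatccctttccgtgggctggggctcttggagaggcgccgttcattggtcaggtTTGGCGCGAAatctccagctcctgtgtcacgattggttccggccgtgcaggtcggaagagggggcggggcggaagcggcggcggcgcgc
CDC6: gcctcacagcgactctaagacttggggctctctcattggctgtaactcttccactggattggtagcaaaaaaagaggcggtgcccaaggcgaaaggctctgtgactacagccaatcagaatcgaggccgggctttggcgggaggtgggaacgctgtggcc
E2F1: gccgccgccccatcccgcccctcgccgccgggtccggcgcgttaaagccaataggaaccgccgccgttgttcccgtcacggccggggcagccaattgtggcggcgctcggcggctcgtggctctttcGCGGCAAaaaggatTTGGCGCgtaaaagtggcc
DTL: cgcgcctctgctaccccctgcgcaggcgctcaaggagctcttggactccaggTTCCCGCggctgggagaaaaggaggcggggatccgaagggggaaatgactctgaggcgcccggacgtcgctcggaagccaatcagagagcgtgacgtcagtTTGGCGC
MCM10: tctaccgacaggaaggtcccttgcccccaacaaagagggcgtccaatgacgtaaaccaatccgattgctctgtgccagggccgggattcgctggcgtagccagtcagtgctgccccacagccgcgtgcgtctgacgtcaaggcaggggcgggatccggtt
The letters searched as E2F motifs, on both strands, were TTCCCGC or TTCGCGC or TTGCCGC or TTGGCGC. MCM6 had 4 matches in overlapping pairs, beginning 151, 148, 89 and 86 bases before the start. E2F1 had 2 matches, at 33 and 19 bases, DTL had 2, at 108 and 7 bases, and MCM3 had 1, at 23 bases. CDC6 and MCM10 had none of these letters in the 160 bases shown. In the wider windows used below, CDC6 had 1 match, beginning 8 bases after the start, MCM3 had 3 and MCM10 had 0. A match is a description of letters and says nothing of the binding of a factor in these cells.

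Wider RefSeq windows ran from 250 bases before to 50 after the start, 1 per gene. Genes were matched to them by gene ID, or by symbol where the ID gave none. The E2F letters were present in 51.3% (80 of 156) of the genes higher in all 4 libraries. Of the other genes with the minimum level, 22.6% (819 of 3629) held them. The share was 23.8% (899 of 3785) over all genes with the minimum level and 13.1% (3564 of 27305) over all promoters. By role, it was 61.5% (8 of 13) for licensing and firing, 67.9% (19 of 28) for the fork, 68.4% (13 of 19) for repair and 88.9% (8 of 9) for the score genes, without MCM4, MCM5 and FAM111B. Nucleotide supply with 13.3% (2 of 15) and G2/M genes with 26.7% (12 of 45) lay lower. Of the 15 highest genes 45.5% (5 of 11) held the E2F letters. The CHR letters TTTGAA, known from promoters of mitotic genes, occurred in 68.9% (31 of 45) of G2/M promoters, 3.57% (1 of 28) of fork promoters and 23.1% (36 of 156) of all higher genes. They occurred in 8.60% (312 of 3629) of the other genes with the minimum level and 15.4% (4212 of 27305) of all promoters. CCAAT occurred in 81.8% (9 of 11) of the 15 highest genes, 68.9% (31 of 45) of G2/M genes and 48.1% (75 of 156) of all higher genes. It occurred in 39.0% (1416 of 3629) of the other genes with the minimum level and 35.7% (9747 of 27305) of all promoters. The motifs were searched separately, so matches may overlap, and the base composition of the sets was not compared. The set of higher genes comes from the contrast that chose the cells. Only 50 of its genes had 20 CPM in the other cells of every library, and these were not searched as a set of their own.

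Genes of the replication fork and of chromatin assembly were higher in S phase cells with medians of 2.17, 2.47, 2.08 and 2.24, and 22 of the 26 listed genes with the minimum level passed 2-fold in all 4 libraries. With the minimum taken over all cells of a library, the fork medians were 1.42, 1.35, 1.51 and 1.74. FEN1, the nuclease that trims Okazaki fragments, was at 138, 139, 95.3 and 113 CPM in S phase cells against 14.1, 7.83, 11.4 and 14.3 CPM. POLA2, of the primase complex, had log2 ratios of 2.99, 3.52, 2.61 and 2.89. PRIM1, the primase itself, had 2.09, 2.47, 2.23 and 2.50 and POLD3, a subunit of polymerase delta, 2.85, 2.96, 2.34 and 2.55. The clamp loader subunits RFC2, RFC3, RFC4 and RFC5 had values between 1.98 and 3.18, and the large subunit RFC1, at 218, 229, 177 and 221 CPM in S phase cells against 81.5, 89.9, 79.8 and 102 CPM, had the smaller ones of 1.42, 1.35, 1.15 and 1.12. The histone chaperones differed in size. ASF1B was at 48.3, 42.2, 44.6 and 57.0 CPM against 4.37, 2.62, 4.19 and 4.67 CPM. CHAF1A, which deposits histones behind the fork, had log2 ratios of 2.41, 2.49, 2.08 and 2.09. NASP was abundant in all cells, at 278, 290.0, 293 and 286 CPM against 109, 98.5, 124 and 114 CPM, and had log2 ratios of 1.35, 1.56, 1.23 and 1.33. DNMT1, which copies DNA methylation onto the new strand, was at 191, 189, 217 and 236 CPM against 42.3, 35.8, 69.0 and 57.3 CPM, higher in all 4 libraries. The 4 genes short of 2-fold in some library were POLE3, POLD2, RPA1 and RPA3, all above 0 in all 4 libraries. POLD2 had 0.34, 0.49, 0.24 and 0.36 and RPA3, of the complex that coats single-stranded DNA, 0.93, 0.88, 0.62 and 0.90.

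Nucleotide supply held 2 kinds of genes. Of 16 genes with the minimum level in every library, 7 were at least 2-fold higher in all 4, and list medians were 0.89, 1.01, 0.70 and 0.70. Among them TK1, DUT, RRM1, DTYMK, DCK and NUDT1 act on deoxynucleotides or their precursors. DUT, which removes dUTP, was at 304, 331, 323 and 320.5 CPM in S phase cells against 101, 91.7, 109 and 88.9 CPM. TK1, thymidine kinase, was at 134, 154, 239 and 183 CPM against 31.5, 26.3, 76.8 and 42.7 CPM, and its lowest S phase value lay in LNCaP. RRM1, the large subunit of ribonucleotide reductase, had log2 ratios of 1.92, 2.29, 1.88 and 2.14. The enzymes that build purine and pyrimidine rings, which RNA synthesis needs as well, stayed under 2-fold. PAICS had 0.20, 0.38, 0.28 and 0.40, GART 0.35, 0.62, 0.44 and 0.42 and UMPS 0.69, 0.83, 0.67 and 0.54. ATIC at -0.09, -0.10, 0.04 and -0.04 and IMPDH2 at -0.01, -0.04, -0.07 and 0.21 lay on both sides of 0.

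DNA repair and checkpoint genes had list medians of 2.50, 2.89, 2.01 and 2.43, with 15 of 17 genes past 2-fold in all 4 libraries. With the minimum taken over all cells of a library, the repair medians were 1.70, 1.29, 1.52 and 1.59. BRCA2, a tumor suppressor of homologous recombination, was at 72.7, 73.7, 76.3 and 119 CPM in S phase cells against 12.1, 5.85, 8.10 and 14.1 CPM. CHEK1, the kinase that slows replication under stress, was at 68.0, 69.1, 55.2 and 64.1 CPM against 7.40, 5.88, 11.2 and 7.17 CPM. Both had log2 ratios of at least 2.31 in every library. The Fanconi anemia genes, which act on crosslinked DNA, were higher as well. FANCI had log2 ratios of 2.50, 3.03, 2.36 and 2.55, FANCD2 2.54, 2.69, 2.01 and 2.32 and FANCA 3.13, 3.21, 2.56 and 2.89. UNG, which removes uracil from DNA, was at 37.1, 29.9, 47.6 and 40.2 CPM against 14.7, 11.9, 15.8 and 13.2 CPM, and the mismatch repair gene MSH6 had log2 ratios of 1.71, 1.497, 1.83 and 1.38. The 2 genes short of 2-fold were PARP1, at 0.14, 0.25, 0.48 and 0.28, and BARD1, at 0.69, 0.84, 0.59 and 0.26. BRCA1 and its partner BARD1 thus had log2 ratios of different size, at least 3.48 for BRCA1 and at most 0.84 for BARD1.

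**Figure D3:**
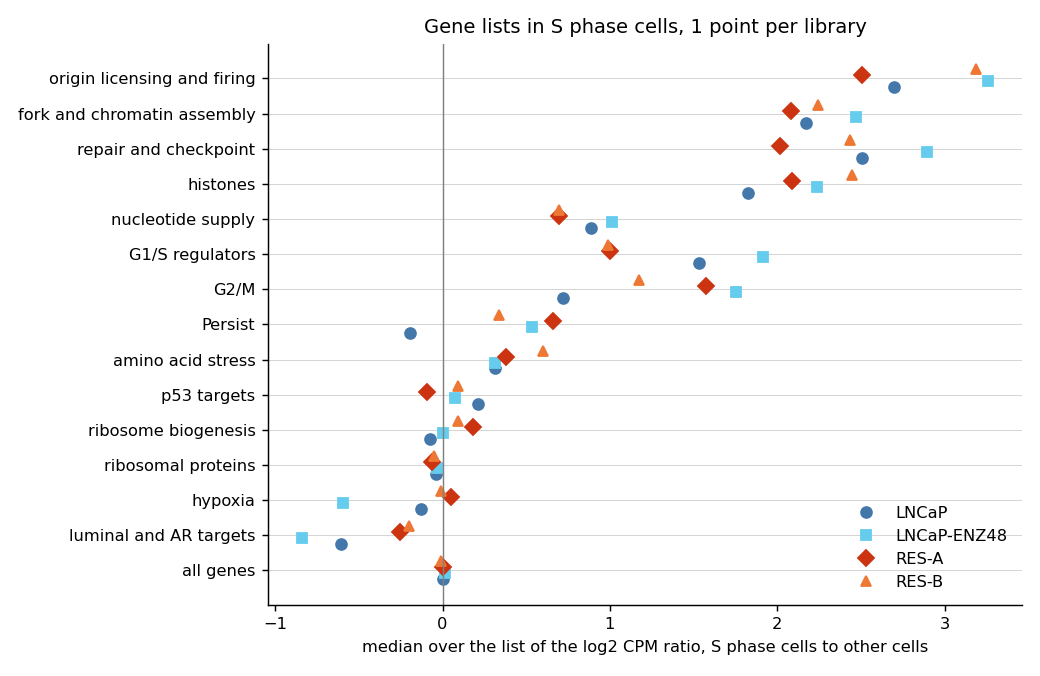
Median over each gene list of the log2 CPM ratio of S phase cells to other cells, 1 point per library and no error bar, for genes with at least 20 CPM in either kind of cell. The origin licensing and firing, fork, repair and histone lists lie between 1.83 and 3.26, the G2/M list between 0.72 and 1.75, and the luminal list below 0 in all 4 libraries, from -0.84 to -0.20.

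Among regulators of the G1 to S transition, the activator E2F1 and RBL1 were both higher in S phase cells. E2F1 was at 79.2, 83.2, 65.7 and 70.4 CPM in S phase cells against 7.48, 5.195, 6.91 and 5.67 CPM, a log2 ratio of 3.40 (3.19 to 3.62), 4.002 (3.77 to 4.23), 3.25 (3.06 to 3.44) and 3.63 (3.42 to 3.85). RBL1, a protein of the retinoblastoma family, had log2 ratios of 2.65, 2.89, 2.20 and 2.56, and CDKN2C, an inhibitor of the cyclin D kinases, 1.53, 1.91, 1.40 and 1.39. CDK2, the kinase that drives S phase, was at 32.9, 30.5, 26.7 and 31.7 CPM against 6.23, 5.02, 5.48 and 5.48 CPM. Its cyclins differed, with CCNE2 at 21.9, 34.8, 27.4 and 34.7 CPM against 2.40, 3.23, 4.97 and 6.34 CPM, past 2-fold in all 4 libraries, and CCNE1 at log2 ratios of 0.26, 0.59, 0.94 and 0.68. CCND1, cyclin D1, was at 174, 189, 144 and 119 CPM against 280.3, 269, 196 and 152 CPM. RBL2, the family member of resting cells, had log2 ratios of -0.72, -0.64, -0.09 and -0.40. CDKN1B, a CDK2 inhibitor, had -0.11, 0.00, 0.32 and 0.13. In all, 5 of 9 genes passed 2-fold in every library (CDKN2C, CCNE2, CDK2, E2F1 and RBL1) and list medians were 1.53, 1.91, 1.001 and 0.99 over 10 to 13 genes. These medians rest in part on genes that reached the minimum through S phase cells. With the minimum of 20 CPM taken over all cells of a library, an alternative chosen after seeing the data, they were -0.11, -0.0024, 0.06 and -0.11.

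Histone RNA was higher in S phase cells, as far as these libraries capture it. Most replication-dependent histone mRNAs end in a stem-loop and not in a poly(A) tail, and libraries primed on poly(A) catch a part of them, so the level of a histone gene here is no measure of its total RNA. The 71 listed genes summed to 4319, 3642, 2873 and 3907 CPM in S phase cells against 1339.7, 953, 551 and 773 CPM. HIST1H4C held most of these UMIs, with 2946, 2441, 2196 and 3014 CPM against 752, 410.5, 288 and 474 CPM. HIST1H1B (chr6:27866792-27867588), a linker histone, was at 194, 218, 78.7 and 80.0 CPM against 20.8, 9.01, 2.66 and 5.12 CPM. LNCaP and LNCaP-ENZ48 had the higher levels of HIST1H1B in both kinds of cells. HIST1H1E had log2 ratios of 1.83, 2.24, 2.07 and 2.44 and HIST2H2AC 2.90, 3.14, 2.11 and 2.76. These 4 of the 6 histone genes with the minimum level passed 2-fold in every library. HIST1H1C had 0.70, 0.52, 1.56 and 1.74, whereas HIST3H2A was lower in S phase cells of all 4 libraries, at -0.56, -0.90, -1.12 and -1.39. SLBP, which binds the histone stem-loop, was at 206, 217, 185 and 174 CPM against 54.9, 52.6, 63.0 and 56.6 CPM. Histone genes have near-identical copies, so the levels of single histone genes are uncertain.

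The S phase list of Seurat, without its genes that were in the score, was read beside the label. Of its 34 genes 24 had the minimum level in every library, and all 24 were at least 2-fold higher in all 4. A gene could reach the minimum through S phase cells alone, so this count follows in part from the filter. It was not taken again with the minimum over all cells. The list medians were 2.56, 2.96, 2.29 and 2.49, and 1.91, 2.24, 1.94 and 2.01 with the minimum taken over all cells. The list shares 13 genes with the fork list, 8 with the repair list and 4 with the licensing list. Per cell, its median was 24.6, 26.6, 20.5 and 27.1 UMIs per 10000 in S phase cells and 4.23, 3.67, 4.40 and 4.76 in the other cells. WDR76 and CENPU, of this list alone, had log2 ratios of 3.22, 3.58, 2.96 and 3.37 and of 2.67, 3.21, 2.997 and 2.98. The genes most like the score over the cells of a library, by Pearson correlation of the fraction of UMIs, were ATAD2 with a mean r over the 4 libraries of 0.724, BRCA1 with 0.699, CENPU, of the centromere, with 0.663, ORC6 with 0.636 and FEN1 with 0.630. Cells of a library share its depth, and these correlations over 2019, 4565, 4629 and 4239 cells are a description.

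S phase cells also held RNA of G2 and mitosis, least so in LNCaP. In LNCaP 13.2% of S phase cells (8.04 to 20.1%) lay in the pooled top 10% of the G2/M list of Seurat, against 10.9% (9.57 to 12.4%) of the other cells. In LNCaP-ENZ48 the shares were 16.1% (11.3 to 21.9%) and 6.81% (6.08 to 7.60%), in RES-A 23.6% (20.7 to 26.7%) and 8.78% (7.90 to 9.72%), and in RES-B 24.0% (19.9 to 28.4%) and 9.65% (8.73 to 10.6%). In LNCaP the intervals overlapped, and in the other 3 libraries they did not. List medians over genes were 0.72, 1.75, 1.58 and 1.17, and 17 of 45 genes passed 2-fold in all 4 libraries. With the minimum taken over all cells, the G2/M medians were 0.65, 0.99, 1.24 and 0.85. CDK1, the kinase that acts from late S phase on, was at 237, 275, 564 and 320.4 CPM in S phase cells against 63.0, 45.6, 138 and 72.9 CPM. MKI67, the proliferation marker, was at 147, 149, 128 and 161 CPM against 50.2, 24.5, 28.1 and 46.7 CPM. Genes of mitotic entry and exit differed from these. CCNB1, cyclin B1, was at 36.9, 38.9, 133 and 77.5 CPM against 119, 86.0, 105 and 103 CPM, below the other cells in LNCaP, LNCaP-ENZ48 and RES-B and above them in RES-A. CDC20, an activator of mitotic exit, had log2 ratios of -1.13, -0.73, 0.66 and -0.19 and the mitotic kinase PLK1 -1.42, -0.11, 1.01 and -0.12. For CCNB1 and CDC20 the sign in LNCaP turned positive when the top 20% of cells were taken or when the lower-scoring 50% of cells were the reference. The sign of CCNB1 in LNCaP-ENZ48 turned positive in these settings too, and with the top 10% of each library.

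Along the score, G2/M genes were highest near the cut and replication genes at the top. G2/M genes summed to 1239.9, 1137, 1395 and 1615 CPM in cells under the 50th percentile of the pooled score and to 7155, 6815, 6084 and 6887 CPM between the 75th and the 90th percentile, just below the cut. From the 95th percentile on they summed to 4762, 5155, 5822 and 5727 CPM, less than just below the cut in every library. Licensing and firing genes had 424, 337, 261 and 345 CPM below the cut and 984, 932, 824 and 945 CPM in the top bin. Histone genes had 2723, 1747, 783 and 1504 CPM and 4244, 3903, 3365 and 3918 CPM. The other cells therefore included cells low in the G2/M list and, just below the cut, cells at or above its level in the highest-scoring cells, and ratios of G2/M genes depend on which of them serve as the reference.

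**Figure D4:**
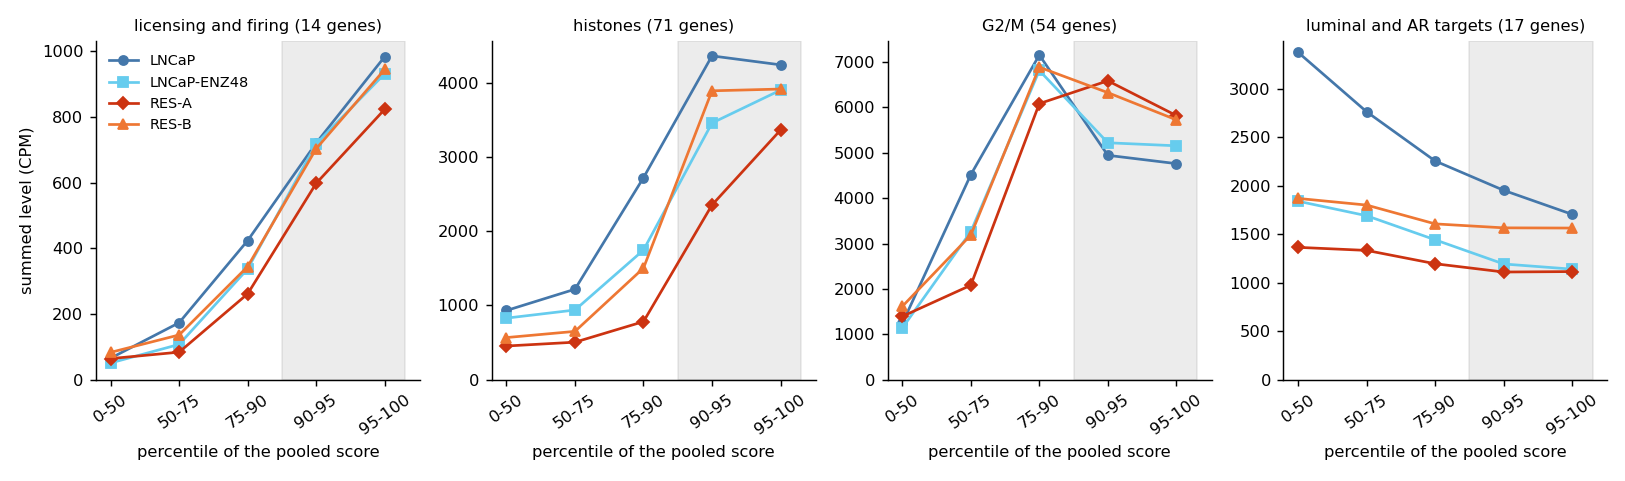
Summed level (CPM, linear scale) of 4 gene lists in cells binned by the percentile of the pooled score, 1 line per library, with the S phase cells shaded. Licensing genes are highest in the top bin, the G2/M list has its highest value below the cut in LNCaP, LNCaP-ENZ48 and RES-B and in the first shaded bin in RES-A, and the luminal list is lower in S phase cells than in the lowest bin.

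The Persist list is a signature of 17 genes from other work that the study scored in these libraries, so it is not independent evidence of a direction here. It shares 9 genes with the G2/M list. In S phase cells its medians were -0.20, 0.53, 0.66 and 0.34, below 0 in LNCaP and above 0 in the other libraries. The LNCaP median was above 0 under 4 of the alternatives, at 0.62 with the top 20% of cells and at 1.33 against the lower-scoring 50%. Over all 4639 genes with the minimum level, 1523 were above 0 and 1433 below 0 in every library, and 4.18% were at least 2-fold higher. In the Persist list MKI67 alone passed 2-fold in all 4 libraries. Of its 16 genes with the minimum level 5 were above 0 and 2 below 0 in every library, and the share above 0 was close to that of all genes. The 2 below were CD81, with log2 ratios of -0.20, -0.03, -0.04 and -0.02, and DYNLL1, with -0.83, -0.35, -0.09 and -0.50. HMMR, of the mitotic spindle, had -0.20, 0.63, 1.07 and 0.88, PTTG1, securin, -0.92, -0.31, 0.07 and -0.06 and UBE2S -0.41, 0.11, 0.44 and 0.34.

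S phase cells were split at the pooled median of 33.7 histone UMIs per 10000, a split chosen after the values were seen and therefore described only. Histone genes were not in the score, but RRM2, TYMS, MCM5 and MCM6 were, and since the cut fixes the least sum of the score genes in a cell, opposite directions among them are not independent. Histone-high cells were 62.5, 56.1, 43.9 and 54.8% of S phase cells. UNG was lower in histone-high cells, with log2 ratios to histone-low cells of -1.43 (-1.91 to -0.97), -1.36 (-1.98 to -0.77), -1.18 (-1.46 to -0.90) and -1.72 (-2.12 to -1.33). MCM6 had -1.38 (-1.85 to -0.91), -1.33 (-1.84 to -0.84), -0.56 (-0.79 to -0.33) and -1.35 (-1.68 to -1.03). MCM5 at -1.06, -0.84, -0.31 and -1.05 and CCNE1 at -1.13, -1.07, -1.25 and -1.20 were lower in histone-high cells of every library too. The G1/S list had medians of 0.43, 0.55, 0.29 and -0.16. The G2/M list had medians of 1.49, 1.22, 0.57 and 1.33, above 0 in every library. TOP2A, a topoisomerase of the G2/M list, was higher in histone-high cells, with 2.20 (1.86 to 2.56), 1.69 (1.41 to 1.99), 1.16 (1.04 to 1.28) and 2.22 (2.01 to 2.43). MKI67 at 1.77, 1.58, 1.21 and 2.05 and CENPF, of the centromere, at 1.88, 1.68, 0.92 and 1.80 were higher as well. CCNB1 had 1.03 (0.49 to 1.597), 1.102 (0.56 to 1.67), -0.09 (-0.24 to 0.06) and 1.11 (0.83 to 1.39), so in RES-A cyclin B1 did not separate histone-high from histone-low cells beyond counting error. RRM2 had 1.42, 1.01, 0.81 and 0.70 and TYMS 0.75, 0.89, 0.71 and 0.83, also above 0 in all 4 libraries. MCM2 at -0.12, 0.07, 0.00 and -0.18 and CDT1 at 0.27, 0.12, 0.21 and 0.17 stayed near 0. Of histone-high cells 20, 27.8, 33.3 and 41.4% lay in the top 10% of the G2/M list, against 1.961, 1.11, 16.0 and 2.73% of histone-low cells, and the RES-A value stood apart among the latter. Median UMIs were 32745, 17019, 15116 and 16652.5 in histone-high and 32452, 18131.5, 13329 and 15774 in histone-low cells.

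**Figure D5:**
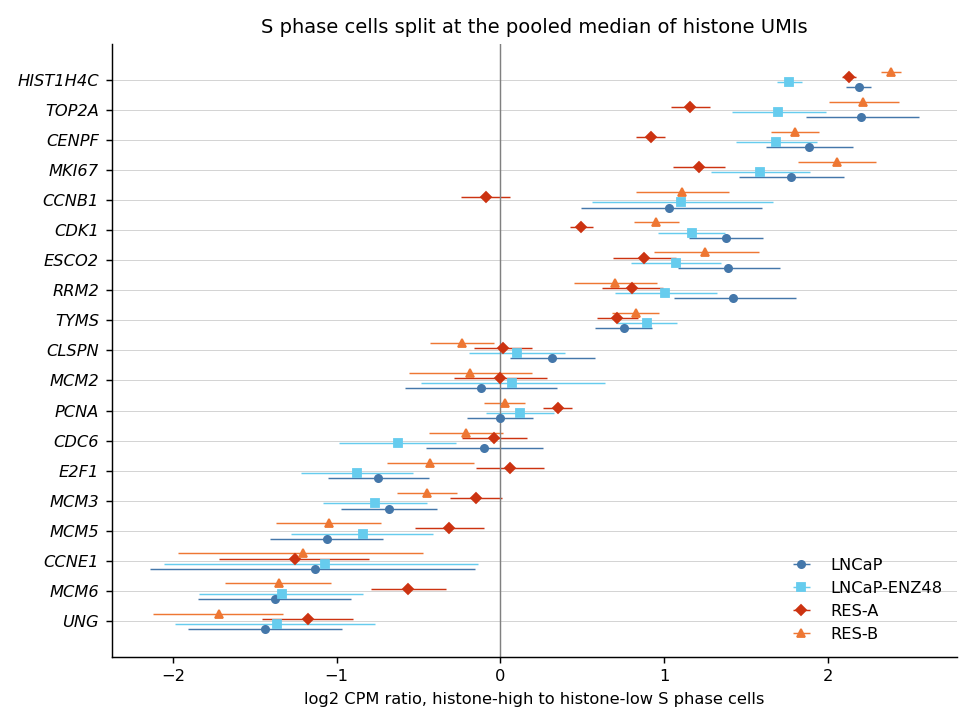
Log2 CPM ratio of histone-high to histone-low S phase cells for selected genes, 1 symbol per library, with exact conditional binomial 95% intervals. TOP2A, MKI67 and CENPF lie above 0 in all 4 libraries and UNG, MCM6, CCNE1 and MCM5 below 0, and for TOP2A, MKI67, CENPF, UNG, MCM6 and MCM5 the RES-A value is the one nearest to 0.

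Few genes were much lower in S phase cells. KDM5B (chr1:202724495-202808487), a demethylase of histone H3 lysine 4, was the only gene past 2-fold in all 4 libraries, and no gene was when the top 20% of cells or the top 10% of each library were taken. It was at 19.5, 19.6, 37.2 and 46.2 CPM in S phase cells and 66.2, 66.3, 95.7 and 124 CPM in the other cells, a log2 ratio of -1.77 (-2.09 to -1.46), -1.76 (-2.12 to -1.42), -1.36 (-1.51 to -1.22) and -1.42 (-1.59 to -1.26), and every S phase value lay below every value in other cells. KDM6B, a demethylase of H3 lysine 27, was at 33.1, 25.03, 23.5 and 20.1 CPM against 63.5, 51.3, 45.9 and 45.3 CPM, again with no overlap. Transcription factors of the prostate lineage were among the 15 lowest. HOXB13 was at 60.6, 72.9, 66.02 and 46.8 CPM against 141, 161, 98.0 and 98.1 CPM. GATA2, which works with the androgen receptor, was at 44.3, 74.3, 58.5 and 56.1 CPM against 110.5, 158, 96.9 and 83.6 CPM. The differences of HOXB13 and GATA2 passed 2-fold in LNCaP and LNCaP-ENZ48, and for HOXB13 also in RES-B. STAT3 had log2 ratios of -0.68, -0.92, -0.62 and -0.60, CASZ1 -0.76, -0.91, -0.64 and -0.66 and the zinc transporter gene SLC30A4 -1.60, -1.12, -0.73 and -1.06. The receptors BMPR2 and IFNGR2, TP53INP1 of the p53 response, MIA3 of the secretory pathway, AFMID and the noncoding GABPB1-AS1, TMEM161B-AS1 and LINC00685 completed the 15. In all, 26 of 4639 genes had log2 ratios of -0.5 or less in all 4 libraries.

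Luminal genes and androgen receptor targets had list medians below 0 in S phase cells, of -0.61, -0.84, -0.25 and -0.20 over 7 to 14 genes. Over all genes with the minimum level, 1433 of 4639 were below 0 in all 4 libraries. Of 7 luminal genes with the minimum level in every library, 5 were below 0 in all 4 (STEAP2, PMEPA1, FOLH1, KRT8 and KRT18) and none passed 2-fold in all 4. STEAP2, a metalloreductase of prostate epithelium, was at 167, 149, 72.1 and 77.8 CPM in S phase cells against 279, 283, 98.1 and 104 CPM in the other cells. PMEPA1 had log2 ratios of -1.27, -0.51, -0.61 and -0.51 and the keratin KRT18 -0.30, -0.48, -0.22 and -0.15. KLK3 was at 281 CPM in LNCaP S phase cells against 772 CPM in the other LNCaP cells, and at 27.2 against 97.6 CPM in LNCaP-ENZ48. In RES-B it was at 34.2 against 29.8 CPM and in RES-A it was hardly detected in either kind of cell. KLK3 and KLK2 are close copies, so their levels are uncertain. FKBP5, an androgen receptor target and chaperone partner, was above the other cells in all 4 libraries, at 34.0, 22.0, 28.4 and 33.5 CPM against 18.5, 10.2, 15.3 and 13.2 CPM. Per cell, the median of the list was 16.0, 11.6, 10.9 and 15.1 UMIs per 10000 in S phase cells and 25.7, 16.9, 12.8 and 17.3 in the other cells. In LNCaP the summed level was 3373 CPM in the lowest bin of the score and 1703 CPM in the highest.

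Other programs had medians nearer to 0. Over all 4639 genes with the minimum level, 1433 were below 0 and 1523 above 0 in all 4 libraries. Ribosomal protein genes had medians of -0.04, -0.03, -0.06 and -0.05, with 58 of 82 below 0 in all 4 libraries, and ribosome biogenesis genes -0.08, 0.01, 0.18 and 0.09. MYC, known to drive ribosome production, was at 108, 71.5, 124 and 99.1 CPM in S phase cells against 192, 117, 143 and 133 CPM, lower in every library. Hypoxia genes had medians of -0.13, -0.59, 0.05 and -0.01, and p53 targets 0.21, 0.07, -0.09 and 0.09. None of these lists held a gene past 2-fold in all 4 libraries. Amino acid stress genes had 0.31, 0.31, 0.38 and 0.60, with 11 of 14 above 0 in all 4 libraries. ATF3, a stress-induced transcription factor, was the only one of them past 2-fold in every library, at 84.1, 46.5, 28.6 and 54.2 CPM against 37.9, 22.2, 13.8 and 26.9 CPM. GDF15, a secreted stress factor on both the p53 and the amino acid stress lists, was at 7415, 3697, 403 and 544 CPM against 3579, 2199.7, 302 and 254 CPM, higher in S phase cells of all 4 libraries.

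The same cut on replication genes chose the S phase cells of every library, so like levels of such genes follow in part from the choice. Against S phase cells of LNCaP, list medians in LNCaP-ENZ48, RES-A and RES-B were -0.02, -0.24 and -0.03 for licensing and firing, -0.01, -0.11 and 0.08 for the fork and -0.13, -0.30 and -0.12 for repair. No licensing or firing gene passed 2-fold. In the fork list RFC3 was lower in RES-A, at -1.26, and PRIM2, a primase subunit, higher in RES-B, at 1.39. In the repair list FANCI was lower in RES-A, at -1.17. In S phase cells 0.384% of 5473 genes were at least 2-fold higher and 0.84% lower in LNCaP-ENZ48, 5.07% and 5.09% of 5755 genes in RES-A, and 5.76% and 3.36% of 5889 genes in RES-B. The same comparison in the other cells gave 0.214% and 0.894%, 4.03% and 4.81%, and 5.65% and 3.43%. Histone medians were -0.26, -1.14 and -0.82 in S phase cells and -0.51, -0.97 and -0.69 in the other cells, over 7 genes. Luminal medians were -1.03, -1.88 and -0.76 in S phase cells, the lowest of all lists in LNCaP-ENZ48 and RES-A, and -0.81, -3.33 and -1.30 in the other cells. In RES-B the p53 targets lay lowest in S phase cells, with medians of -0.52, -1.07 and -1.29 over the 3 comparisons. In the other cells the p53 target medians were -0.34, -0.19 and -0.98. All 3 comparisons share the LNCaP library, whose 136 S phase cells are their reference.

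G2/M genes had list medians of opposite sign in the 2 kinds of cells. Against LNCaP they were 0.08, 0.15 and 0.27 in S phase cells and -0.64, -0.51 and -0.20 in the other cells, and those of the Persist list 0.08, 0.69 and 0.37 and -0.49, -0.30 and -0.35. CCNB1 in RES-A against LNCaP had log2 ratios of 1.85 (1.61 to 2.09) in S phase cells and -0.18 (-0.24 to -0.13) in the other cells, a difference of 2.03 (1.79 to 2.27). CDC20 had 1.28 (1.01 to 1.56) in S phase cells and -0.51 (-0.59 to -0.43) in the other cells. Both were therefore higher than LNCaP in S phase cells of RES-A and lower in its other cells. UBE2C, of the ligase of mitotic exit, had a difference of 1.53 (1.35 to 1.70) and the linker histone HIST1H1B of 1.67 (1.37 to 1.97). In RES-B the differences were 1.27 (1.01 to 1.53) for CCNB1, 1.12 (0.85 to 1.39) for NCAPG, of condensin, and 1.08 (0.89 to 1.28) for HMMR. In LNCaP-ENZ48 MKI67 had 0.01 (-0.15 to 0.18) in S phase cells and -1.04 (-1.13 to -0.95) in the other cells. These differences depended on the cells chosen. With the top 10% of each library taken, those of RES-A were 0.68 for CCNB1, 0.81 for UBE2C and 0.04 for HIST1H1B, so that of HIST1H1B was close to 0. The share of S phase cells high in G2/M genes was 13.2% in LNCaP, 23.6% in RES-A and 24.0% in RES-B. Without cells high in G2/M genes the RES-A differences were 0.80 for CCNB1 and 0.70 for CDC20, and the RES-B differences 0.52 for CCNB1 and 0.55 for HMMR. For NCAPG in RES-B the alternatives ranged from 0.51 to 1.72.

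SYT4 (chr18:43267892-43277535), a synaptotagmin of vesicle traffic, had the largest difference between S phase cells and other cells in LNCaP-ENZ48 and in RES-B, of 2.77 (2.30 to 3.24) and of 2.90 (2.44 to 3.35) among 2448 and 2403 genes compared. Over the alternatives these ranged from 1.65 to 3.01 and from 2.32 to 3.17. It was at 9.40, 78.3, 0.862 and 70.9 CPM in S phase cells and 89.5, 109.5, 1.19 and 90.6 CPM in the other cells. LNCaP was the library that stood apart, since its S phase cells alone lay far below the other cells of their library, while RES-A hardly held SYT4 in either kind. HMOX1, heme oxygenase, was at 256, 54.4, 8.96 and 18.7 CPM in S phase cells and 86.5, 46.9, 9.01 and 14.04 CPM in the other cells. CDKN1A, an inhibitor of cyclin-dependent kinases, was at 129.5, 62.3, 57.7 and 19.0 CPM against 53.6, 43.3, 55.1 and 19.4 CPM. Both were more than 2-fold higher in S phase cells of LNCaP than in its other cells, and less so or not at all in the other libraries. Against LNCaP, CDKN1A in RES-A had -1.17 (-1.33 to -1.005) in S phase cells and 0.04 (-0.04 to 0.12) in the other cells, and the difference ranged over the alternatives from -1.45 to -0.64. TXNIP, which restrains glucose uptake, was at 584, 381, 139 and 329.8 CPM against 466, 459, 205 and 456 CPM, above the other cells in LNCaP and below them in the rest.

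ELF3 and SYNE2 had smaller ratios of the resistant lines to LNCaP in S phase cells than in the other cells. ELF3, an epithelial transcription factor, was at 75.4, 82.2, 75.9 and 80.5 CPM in S phase cells and 38.9, 62.7, 84.1 and 73.4 CPM in the other cells, so that the 4 libraries lay close together in S phase cells and LNCaP lay lowest in the other cells. SYNE2, of the nuclear envelope, was at 80.1, 85.7, 80.8 and 149 CPM against 26.0, 30.9, 49.2 and 81.8 CPM. S100P, a calcium-binding protein, was lower in LNCaP-ENZ48 than in LNCaP, by log2 ratios of -1.504 (-2.15 to -0.89) in S phase cells and -0.63 (-0.69 to -0.56) in the other cells. EIF1B, a translation factor, was at 283 CPM in RES-A S phase cells and 475 CPM in the other RES-A cells, above the 83.9 and 75.1 CPM of LNCaP in both kinds of cells. CHEK1 had a difference of -0.90 (-1.17 to -0.62) in RES-A, and CRELD2 of -0.70 (-0.93 to -0.47) in RES-B. Over the alternatives the difference ranged from -2.04 to -0.81 for CHEK1, from -1.10 to -0.64 for CRELD2, from -2.08 to -0.58 for S100P, and for ELF3 from -1.33 to -0.60 in RES-A and from -1.07 to -0.44 in RES-B. SNAP29 had a difference of -0.60 (-0.82 to -0.37) in RES-B, but of -0.02 with every cell thinned to 5000 UMIs.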

How the data were processed

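The deposited values are UMI counts per gene and cell barcode from droplet libraries of sorted living cells. The authors made these counts with Cell Ranger 3.0.2 with a prebuilt GRCh38 reference, and the matrices list 33538 genes for the barcodes called as cells. Sample titles gave the groups. The gene lists, the members and the rules were chosen with earlier results of these data known.

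Barcodes with at least 1500 genes, at least 5000 UMIs and under 20% mitochondrial UMIs were kept, which left 2019 of 2358, 4565 of 4812, 4629 of 5156 and 4239 of 4907. S phase cells held 3676073 to 11602605 UMIs per library. No doublets were removed: Scrublet, through scanpy 1.11.5, marked 14, 0, 8 and 0 cells and so did not work, and dropping the top-scoring cells was an alternative. UMIs were summed per library over S phase cells and over the other cells and scaled to CPM. Ratios have exact conditional binomial 95% intervals, shares exact Clopper-Pearson intervals and ratios of shares Katz intervals. With 1 library per group no test was possible. On simulated counts 95.5%, 95.5%, 95.7% and 95.3% of true log2 ratios lay inside the interval, over 5065, 4761, 4975 and 5240 genes. These counts were drawn as Poisson counts, the model that the interval assumes. They check the calculation only and say nothing of variation between cells or between libraries.

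Genes named were the 12 score genes, genes of the lists, the 15 genes highest and the 15 lowest by the least extreme of the 4 log2 ratios, the 5 genes at each end of the difference between S phase cells and other cells per library comparison (at least 50 CPM in either kind of cell of both libraries and 20 UMIs in each of the 4 sums), and the 5 most correlated with the score. GDF15, FKBP5 and other list members were picked from the lists after their values were seen. Coordinates came from GENCODE 44, where 33113 gene IDs were found, and promoters from RefSeq on GRCh38.p14. Scaling by TMM (edgeR 4.0.16) and by DESeq2 1.42.0 size factors, in R 4.3.3, were alternatives. Other steps used Python 3.11.15, numpy 2.4.6, pandas 2.3.3, scipy 1.17.1 and matplotlib 3.10.9. Values of some list members are not reported here.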

Additional observations from a re-analysis of the deposited data

Results flagged for a closer look

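The Persist list stood out because its median log2 ratio of S phase cells to other cells took opposite signs between libraries, at -0.20 for LNCaP cells, 0.53 after ENZ for 48 h, 0.66 for RES-A and 0.34 for RES-B. The difference between libraries was not tested. Of the 17 genes of the list 9 are also in the G2/M list. In LNCaP the median was above 0 under 4 alternatives, among them 0.62 for the top 20% of cells, 1.33 against the lower-scoring 50% of cells and 0.99 without cells high in G2/M genes.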

How the results depend on the processing

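No paired analysis was possible because each group is 1 library, so that groups share fewer than 2 replicate numbers. S phase cells and other cells were compared within a library throughout. The RES-A to LNCaP ratio of S phase shares was 3.78 for the top 5% and 1.81 for the top 20% of the score, and that of RES-B to LNCaP 2.20 and 1.14, with RES-B at 0.632 of RES-A for the top 20%. With cells thinned to 5000 UMIs, 27.6% of RES-A and 29.1% of RES-B S phase cells lay in the G2/M top 10%. Genes 2-fold higher in all libraries numbered 590 with no minimum level, 95 with 50 CPM and 64 with 20 CPM over all cells, an alternative chosen after seeing the data that leaves out genes at the minimum through S phase cells alone. Genes 2-fold lower numbered 16 with no minimum, 2 (KDM5B and KDM6B) for the top 5%, against the lower-scoring 50% and without cells high in G2/M genes, and 0 for the top 20% and the top 10% per library, and the cause was not tested. With each library left out, 197 to 221 genes were higher and 1 to 3 lower, the 3 (HOXB13, KDM5B and SLC30A4) without RES-A. The log2 ratio of CCNB1 turned to 0.48 (top 20%) and 0.48 (lower-scoring 50%) in LNCaP, and to 1.34 (top 20%), 1.21 (top 10% per library) and 0.74 (lower-scoring 50%) in LNCaP-ENZ48. That of CDC20 in LNCaP turned to 0.55 (top 20%), 1.503 (lower-scoring 50%) and 1.08 (without cells high in G2/M genes). With 20 CPM over all cells the G1/S list had medians of -0.11 in LNCaP, -0.0024 in LNCaP-ENZ48 and -0.11 in RES-B, all of the other sign. Of the list medians under alternatives 883 lay within 0.5 on the log2 scale of the value given, and 75 lay further off. Another 2, those of the G1/S list in LNCaP and LNCaP-ENZ48, were past 2-fold as given and reversed in sign. Medians of the Persist, hypoxia, ribosome biogenesis and p53 lists, all under 2-fold, changed sign in single libraries under some alternatives. Differences between libraries kept their sign in all 450 values, but 100 moved past their interval. The difference of HIST1H1B in RES-A was 0.04 with the top 10% per library, that of SNAP29 in RES-B -0.02 with thinned cells and that of MT2A in LNCaP-ENZ48 -0.04 for the top 5%. RES-A and RES-B kept the higher shares than LNCaP, and LNCaP-ENZ48 the lower, under all 6 alternatives of the share ratios. The 136 S phase cells of LNCaP limit the precision of every ratio to LNCaP.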
